A study of Mus musculus with 75 samples.

Results

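Hyaluronan synthesis, binding and breakdown was followed in the lung through 10 genes, the synthases Has1, Has2 and Has3, the breakdown genes Hyal1, Hyal2 and Cemip, the receptors Cd44 and Lyve1, and the matrix partners Tnfaip6 and Vcan. They were taken by symbol from the 55536 genes of the deposited count table, and all 10 passed the filter on low counts. RNA of the right inferior lobe, collected after bronchoalveolar lavage, was sequenced from 75 male C57BL/6JRj mice aged 12 to 14 weeks at the start, with 1 library per mouse. In BLEO-IPF mice, bleomycin sulphate (BLEO), a drug that injures the alveolar epithelium, had been instilled once into the trachea, and the lungs were taken on day 7 (n = 10), days 14, 21, 28 and 35 (n = 12 each) or day 42 (n = 7). Only BLEO-IPF mice that had lost 5 to 17% of body weight in the first week were randomized, so mice with milder or more severe weight loss are not represented. The control mice (CTRL, n = 10) carry a saline treatment in the sample titles, whereas the treatment protocol calls them untreated. This single group serves every day, and its day of collection is not given. A difference from CTRL therefore cannot be told apart from one of age or time of collection. All 75 mice were of this wild-type strain. In bulk lung tissue, fewer cells of a type and less RNA per cell cannot be told apart, which holds for every difference given here.

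Hyaluronan is a long unbranched sugar polymer of the extracellular matrix. It is extruded at the cell surface by the HAS enzymes from UDP-sugars, is cut by hyaluronidases and by the CEMIP protein, and its fragments are digested to single sugars by lysosomal exoglycosidases. It is bound by receptors such as CD44 and LYVE-1, by the proteoglycan versican and by TSG-6, the product of Tnfaip6, which transfers heavy chains of inter-alpha-inhibitor onto it. In injured lung, hyaluronan accumulates in the provisional matrix and retains water there.

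Total counts were between 9240291 and 14665247 per library. Markers of alveolar type II cells were abundant in every group, with a summed level of 19965 to 24651 CPM (counts scaled to library size) in CTRL mice, as lung tissue requires. On day 14, 4 of the 5 markers fell and the sum was 5531 to 21327 CPM, and on the other days its range lay between 8822 and 27923 CPM. A single day 28 library (mouse 10) stood apart with skeletal muscle markers at 1133 CPM, against a median of 4.17 CPM over all mice, and heart muscle markers at 1464 CPM. Day 28 mice 11 and 8 were also high in heart muscle markers (751 and 591 CPM, against a median of 132 CPM over all mice and at most 262 CPM in CTRL mice), and 3 of 4 of these markers rose on day 28. Thymus markers were highest in 1 CTRL library (mouse 9, 26 CPM) and 1 day 28 library (mouse 7, 19 CPM), against a median of 0.691 CPM. Without any 1 of these day 28 libraries, 6 hyaluronan genes still differed from CTRL on day 28. Without CTRL mouse 9, the numbers of hyaluronan genes that differed from CTRL were 5, 5, 7, 6, 9 and 4 on the successive days, against 5, 5, 7, 6, 8 and 4 with all mice.

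Cemip and Cd44 rose on all 6 days after BLEO administration, Has2 and Vcan on 5, Tnfaip6 on 3, and Hyal1 and Lyve1 fell on 5 and 4 days. Has1 and Hyal2 passed the test on no day, and Has3 rose on day 35. A gene was called where the adjusted p was under 0.05 (edgeR quasi-likelihood test, Benjamini-Hochberg adjustment over 16221 genes). On day 7, 5 of the 10 genes were called and all 5 were higher (Has2, Cemip, Cd44, Tnfaip6 and Vcan), beside 45.8% of all genes tested (24.8% higher and 21% lower). On day 14, 4 were higher and 1 was lower, in all 5 of 10, beside 62.4% of all genes (32.4% higher and 29.9% lower). On day 21, 5 were higher and 2 were lower, or 7 of 10, beside 54.2% of all genes (28.3% higher and 25.8% lower). With only 10 genes, such shares are coarse and were not tested against those of all genes. The counts of these days and of the later days are therefore not read as particular to the hyaluronan genes. On day 28, 4 were higher and 2 were lower, beside 43.3% of all genes (24.1% higher and 19.2% lower). On day 35, 6 were higher and 2 were lower, beside 29.9% of all genes (16.9% higher and 13.1% lower). On day 42, 2 were higher and 2 were lower, beside 24.7% of all genes (13.7% higher and 11% lower). The median log2 fold change (log2FC) of the 10 genes on the successive days was 0.53, 0.46, 0.57, 0.11, 0.63 and 0.25, with no steady trend, where that of all genes was between -0.0024 and 0.018.

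**Figure D1:**
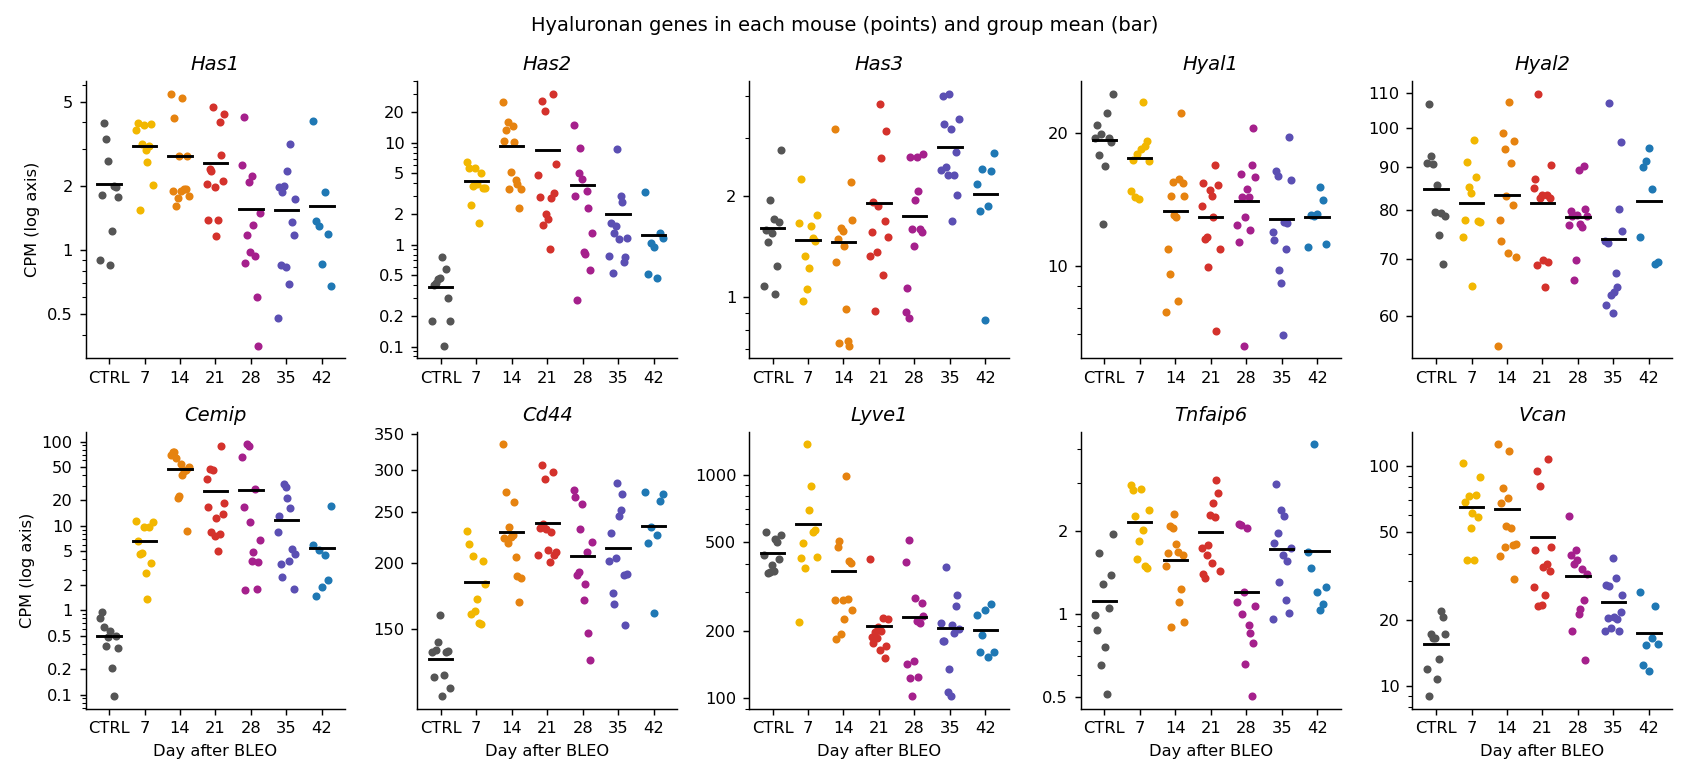
Level of each hyaluronan gene in CPM (log axis) in every mouse (points) of the CTRL group and of BLEO-IPF mice by day, with the group mean as a bar. Has2, Cemip and Vcan lie above all CTRL mice on days 7, 14 and 21, whereas Lyve1 lies below all CTRL mice on day 42 and Hyal2 overlaps with CTRL on every day.

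The levels of different genes were compared per length of their merged exons (RPKM). In CTRL lungs Lyve1 had the highest level (153 ± 25.7 RPKM, SD, n = 10), followed by Hyal2 (25.8 ± 3.29) and Cd44 (19.5 ± 2.06), whose ranges overlapped with each other but not with that of Lyve1. Hyal1 came next (5.11 ± 0.865) and its range was apart from those of its neighbours Cd44 and Vcan (1.07 ± 0.290). The level of Hyal1 is uncertain, since it shares exonic bases with Naa80 on the same strand, as given below. Below these, Tnfaip6 (0.651 RPKM), Has1 (0.454), Has3 (0.252), Has2 (0.0907) and Cemip (0.0405) each overlapped with the next gene in the order. Both receptors and both hyaluronidases thus had higher mean levels than the 3 synthases. On day 14 the order was Lyve1 (127 RPKM), Cd44 (33.7), Hyal2 (25.3), Vcan (4.42), Cemip (3.89), Hyal1 (3.54), Has2 (2.21), Tnfaip6 (0.922), Has1 (0.614) and Has3 (0.230). Neighbours in this order overlapped in range, apart from Lyve1 with Cd44 and Hyal2 with Vcan, and Cemip, last of the 10 genes in CTRL lungs, stood beside Vcan and Hyal1. The order of these 3 genes depended on the length used. Per length of the longest transcript, Cemip (6.68 RPKM) came before Vcan (5.15) and Hyal1 (4.43) on day 14. By day 42 Cemip was seventh in the order (0.447 RPKM) and Has2 last (0.293), and Cd44 still came before Hyal2 (34.6 and 24.9), with overlapping ranges.

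Promoter sequence was available for 7 of the 10 genes in RefSeq (GRCm38.p6). The 250 bases before the RefSeq transcription start are shown for Cemip, Vcan and Tnfaip6, 3 genes that rose, to show the sequence at which their transcription starts. Windows were searched on both strands for the AP-1 motif TGANTCA and the TATA box TATAAA, and a match stands in capitals. The Cemip window lies at chr7:84086506-84086755 on the minus strand, the Vcan window at chr13:89742513-89742762 on the minus strand and the Tnfaip6 window at chr2:52037863-52038112 on the plus strand.
Cemip: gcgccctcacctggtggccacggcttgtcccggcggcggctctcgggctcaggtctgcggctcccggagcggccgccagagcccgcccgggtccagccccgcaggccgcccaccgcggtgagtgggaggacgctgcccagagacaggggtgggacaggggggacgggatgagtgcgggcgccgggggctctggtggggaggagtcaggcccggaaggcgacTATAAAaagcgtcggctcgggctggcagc
Vcan: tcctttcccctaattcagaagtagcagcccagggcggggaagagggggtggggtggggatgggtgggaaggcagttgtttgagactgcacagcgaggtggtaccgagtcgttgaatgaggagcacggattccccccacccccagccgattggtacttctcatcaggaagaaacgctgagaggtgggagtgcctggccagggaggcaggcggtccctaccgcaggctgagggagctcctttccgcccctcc
Tnfaip6: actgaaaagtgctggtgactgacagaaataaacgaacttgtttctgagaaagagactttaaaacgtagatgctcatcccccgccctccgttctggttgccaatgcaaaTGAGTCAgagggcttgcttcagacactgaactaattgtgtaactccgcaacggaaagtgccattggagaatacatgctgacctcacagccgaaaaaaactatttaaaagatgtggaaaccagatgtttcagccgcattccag
The Cemip window held TATAAA 29 bases before the start, a sequence found in 12.4% of 32841 promoter windows of the same length. The Tnfaip6 window held TGAGTCA 142 bases before the RefSeq start, and the AP-1 motif was found in 6.75% of windows. This window runs past the Ensembl start of the gene (52038009), so its distances hold for the RefSeq start only. Neither motif was found in the windows of Vcan, Cd44, Has1, Hyal1 and Hyal2, and the GC content was 75.2% for Cemip, 62.4% for Vcan and 44.4% for Tnfaip6. The Has1 and Hyal1 windows also run past the Ensembl start. The Hyal2 window (107568913 to 107569162) lies within the Ensembl gene, which starts at 107567945. A match is a description of these letters and not evidence of binding.

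Of the synthases, Has2 rose on 5 days, Has3 on 1 and Has1 on none. Has2 (ENSMUSG00000022367), on chromosome 15 (56665627 to 56694539, minus strand of GRCm38, 4 exons), encodes the synthase that makes most hyaluronan in development. In CTRL lungs Has2 was at 0.102 to 0.761 CPM (median 0.407), which is only 1 to 8 counts per mouse, with 4 mice at or under 3 counts. It was at 1.63 to 6.46 CPM (median 3.86) on day 7 and at 2.30 to 24.9 CPM (median 7.71) on day 14. All mice of these days, and those of day 21 (0.898 to 30.3 CPM, median 3.10), were above all CTRL mice, as were 10 of 12 on day 28 (0.289 to 15.1 CPM, median 2.65) and 9 of 12 on day 35 (0.53 to 8.74 CPM, median 1.24). Non-overlap of this kind was found for 3 of the hyaluronan genes on day 7 and 4 each on days 14 and 21, beside 11.2%, 15.6% and 11.7% of all genes. Compared to CTRL, Has2 was 23.5-fold higher on day 14 (log2FC 4.56 ± 0.64, SE; 95% confidence interval 3.30 to 5.82; edgeR adjusted p = 8.54e-09) and 21.5-fold higher on day 21 (log2FC 4.42 ± 0.64, edgeR adjusted p = 3.02e-08). It was already 10.5-fold higher on day 7, and 9.57-fold and 4.98-fold higher on days 28 and 35. With so few counts in CTRL mice, the size of these folds is loosely bounded. On day 42, 5 of 7 mice were above all CTRL mice (0.469 to 3.26 CPM, median 1.04), but the difference missed the threshold (log2FC 1.64 ± 0.79, edgeR adjusted p = 0.118) and passed it with DESeq2 (adjusted p = 0.0351). In the comparison of day 42 with day 14, Has2 fell (log2FC -2.92 ± 0.64, edgeR adjusted p = 0.000269).

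Has1 (ENSMUSG00000003665), on chromosome 17 (17843323 to 17855205, minus strand), was at 0.856 to 3.96 CPM in CTRL mice (median 1.90), at 1.54 to 3.96 CPM on day 7 (median 3.12) and at 0.356 to 4.26 CPM on day 28 (median 1.25). The groups overlapped on every day. Its log2FC ran from 0.59 ± 0.31 on day 7 (edgeR adjusted p = 0.114) to -0.39 ± 0.31 on days 28 and 35, with a confidence interval of -0.16 to 1.02 on day 14. The day 7 difference passed the threshold when only the CTRL and day 7 mice were fitted (log2FC 0.58, edgeR adjusted p = 0.0389). Has3 (ENSMUSG00000031910), on chromosome 8 (106870242 to 106884566, plus strand), rose on day 35 from 1.02 to 2.76 CPM in CTRL mice (median 1.58) to 1.69 to 4.06 CPM (median 2.58), a log2FC of 0.80 ± 0.22 (edgeR adjusted p = 0.0029). The ranges overlapped, and 5 of 12 mice were above all CTRL mice. On the other days its log2FC was between -0.14 and 0.33. Has3 shares 352 exonic bases with the antisense gene Chtf8, which had 70.9% as many counts, and Chtf8 was called on no day (log2FC -0.28 ± 0.24 on day 35).

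The make-up of the synthase transcripts differed between days. The summed RPKM of the 3 genes was 0.796 ± 0.261 in CTRL lungs, 3.06 ± 1.87 on day 14 and 0.969 ± 0.476 on day 42 (SD). Has2 accounted for 11.7 ± 6.83% of the sum in CTRL mice (4.84 to 28.2%), 50.8 ± 7.95% on day 7 (31.7 to 58.6%) and 66.9 ± 14.7% on day 14 (36 to 88.9%). The shares of CTRL mice did not overlap with those of days 7 and 14. Its mean share on days 21, 28, 35 and 42 was 53.6%, 47.2%, 32% and 28.7%. Has1, with 55 ± 11.8% of the sum in CTRL lungs, held 23.4 ± 9.66% on day 14. These shares are descriptive and were not tested.

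**Figure D2:**
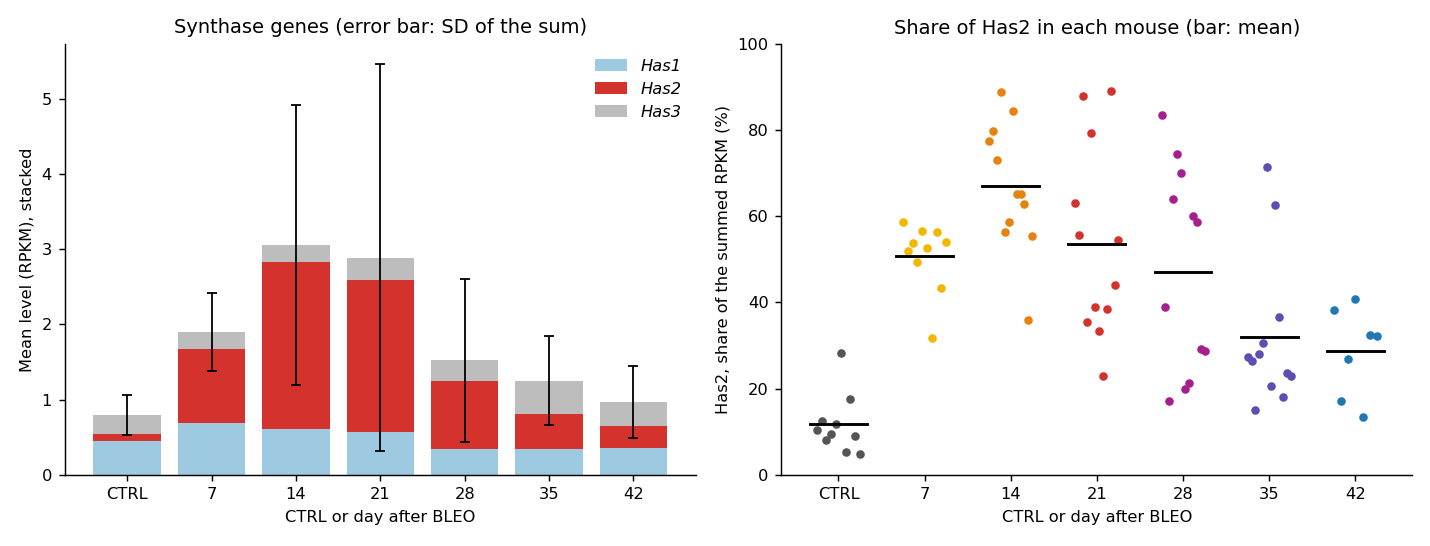
Left, mean level of Has1, Has2 and Has3 in RPKM, stacked, with the SD of their sum as error bar. Right, share of Has2 in the summed RPKM of each mouse (points, bar at the mean). The mean share is 11.7% in CTRL mice and 66.9% on day 14.

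Among the breakdown genes, Cemip had the largest rise of the 10 genes, Hyal1 fell on 5 days and Hyal2 was called on none. Cemip (ENSMUSG00000052353), on chromosome 7 (83932857 to 84086502, minus strand, 28 exonic segments), encodes a secreted protein that binds and depolymerizes hyaluronan in fibroblasts. In CTRL lungs it was at 0.0955 to 0.954 CPM (median 0.485), from 1 to 12 counts. It was at 1.34 to 11.5 CPM (median 5.72) on day 7, at 8.78 to 75.4 CPM (median 48.3) on day 14 and at 5.06 to 87.4 CPM (median 15.3) on day 21. On day 28 it was at 1.73 to 92.8 CPM (median 9.01), on day 35 at 1.76 to 31.4 CPM (median 6.90) and on day 42 at 1.47 to 17.1 CPM (median 4.50). Every BLEO-IPF mouse was above every CTRL mouse on all 6 days, and on days 28 and 35 Cemip was the single hyaluronan gene without overlap (3.44% and 3.77% of all genes). Compared to CTRL it was 12.8-fold higher on day 7, 92.3-fold on day 14 (log2FC 6.53 ± 0.76, 95% confidence interval 5.04 to 8.02, edgeR adjusted p = 3.05e-11), 49.6-fold on day 21 and 52.4-fold on day 28. It was 22.9-fold and 10.6-fold higher on days 35 and 42 (day 42 log2FC 3.40 ± 0.88, edgeR adjusted p = 0.00281). Without day 42 mouse 7, which had 17.1 CPM against 5.93 CPM in the next mouse, the day 42 log2FC was 2.78 ± 0.93 (edgeR adjusted p = 0.0278). Cemip rose further from day 7 to day 14 (log2FC 2.85 ± 0.55, edgeR adjusted p = 0.00022) and fell between day 14 and day 42 (log2FC -3.13 ± 0.65, edgeR adjusted p = 0.000148; -3.75 without that mouse).

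Hyal1 (ENSMUSG00000010051), on chromosome 9 (107576927 to 107581710, plus strand), encodes a lysosomal hyaluronidase. It was at 12.4 to 24.6 CPM (median 19.5) in CTRL mice, at 14.2 to 23.5 CPM (median 17.7) on day 7, and at 7.85 to 22.2 CPM (median 13.7) on day 14. It was at 7.12 to 16.9 CPM on day 21, at 6.59 to 20.6 CPM on day 28, at 6.98 to 19.6 CPM on day 35 and, in the 7 mice of day 42, at 11.1 to 15.1 CPM (median 13). The groups overlapped throughout, with 4 of 12 mice below all CTRL mice on day 14 and 6 of 12 on day 35. It did not pass the test on day 7 (log2FC -0.13 ± 0.15, edgeR adjusted p = 0.474) and fell on each later day, by 0.53 ± 0.14 on the log2 scale on day 14 (edgeR adjusted p = 0.000856), by 0.59 ± 0.14 on day 35 and by 0.57 ± 0.16 on day 42 (edgeR adjusted p = 0.00746). Hyal1 shares 1920 of its 3777 exonic bases with Naa80 on the same strand, so reads there cannot be given to one of them. Naa80, an acetyltransferase gene, had 142% as many counts and also fell on day 14 (log2FC -0.34 ± 0.10, edgeR adjusted p = 0.00177), day 28 and day 35. Its part in the Hyal1 values was not tested, and the fall of Hyal1 is therefore uncertain in size. Of 5 markers of blood endothelium, 4 fell on day 7, 5 on days 14, 21, 28 and 35 and 2 on day 42, and their sum (2529 to 3230 CPM in CTRL mice, 1184 to 2655 CPM on day 14) had the highest r with Hyal1 of all marker lists over deviations from group means (0.70). The part of these cells in the fall of Hyal1 was not tested.

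Hyal2 (ENSMUSG00000010047), its neighbour on chromosome 9 (107567945 to 107572779, plus strand), encodes a hyaluronidase anchored at the cell surface. It was at 69.2 to 107 CPM (median 82.7) in CTRL mice and at 55.4 to 107 CPM (median 82.2) on day 14, and the groups overlapped on every day. The log2FC was between -0.02 and -0.20, with a confidence interval of -0.20 to 0.15 on day 14 and of -0.37 to -0.02 on day 35 (edgeR adjusted p = 0.0811). Leaving out CTRL mouse 9 or day 35 mouse 4 or 11 took the day 35 adjusted p to between 0.0153 and 0.0493 (edgeR). Gm9917, an antisense gene within the Hyal2 locus that shares no exonic base with it, had 55.3% as many counts and fell by 0.84 ± 0.15 on the log2 scale on day 14 (edgeR adjusted p = 3.17e-06). How reads were assigned by strand is not given in the sources used here.

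**Figure D3:**
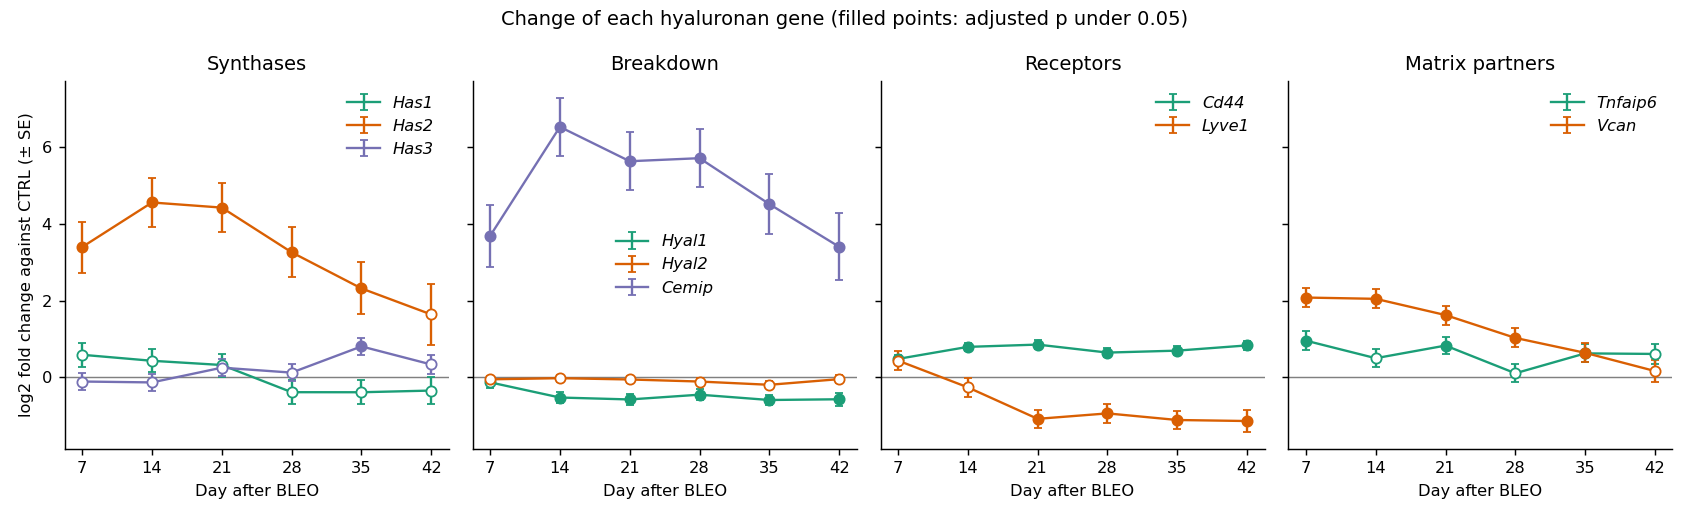
log2FC against CTRL by day, with the SE as error bar, for synthases, breakdown genes, receptors and matrix partners. Filled points have an adjusted p under 0.05. Cemip reaches 6.53 and Has2 4.56 on day 14, and Lyve1 is between -0.94 and -1.14 from day 21 on.

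The receptors moved in opposite directions. Cd44 (ENSMUSG00000005087), on chromosome 2 (102811141 to 102901665, minus strand), encodes the main cell surface receptor for hyaluronan, found on leukocytes, fibroblasts and many epithelial cells. It was at 112 to 159 CPM (median 136) in CTRL mice, at 154 to 230 CPM (median 177) on day 7, and at 169 to 335 CPM (median 223) on day 14. It was at 201 to 306 CPM on day 21, at 131 to 275 CPM on day 28, at 153 to 283 CPM on day 35 and at 161 to 273 CPM (median 234) on day 42. All mice of days 14, 21 and 42 were above all CTRL mice, as were 8 of 10 on day 7, 10 of 12 on day 28 and 11 of 12 on day 35. On day 42 non-overlap was found for 3 hyaluronan genes (Cemip, Cd44 and, below CTRL, Lyve1), beside 7.58% of all genes. Compared to CTRL, Cd44 was 1.39-fold higher on day 7 (log2FC 0.48 ± 0.11, edgeR adjusted p = 0.00036), 1.73-fold on day 14, 1.80-fold on day 21 (log2FC 0.85 ± 0.11, edgeR adjusted p = 1.03e-09) and 1.78-fold on day 42 (log2FC 0.83 ± 0.12, edgeR adjusted p = 4.05e-07). Between day 14 and day 42 the log2FC of Cd44 was 0.04, with a confidence interval of -0.19 to 0.27.

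Lyve1 (ENSMUSG00000030787), on chromosome 7 (110850607 to 110863239, minus strand), encodes a hyaluronan receptor of lymphatic endothelium that some tissue macrophages and other endothelial cells also express. It was at 364 to 554 CPM (median 428) in CTRL mice. On day 7 it spread widely, from 220 to 1366 CPM (median 523), with 4 of 10 mice above all CTRL mice and 1 below. On day 14 it was at 184 to 983 CPM (median 278), with 7 of 12 mice below all CTRL mice. It was at 152 to 421 CPM (median 193) on day 21, with 11 of 12 mice below all CTRL mice. It was at 102 to 511 CPM on day 28 and 102 to 386 CPM on day 35, with 10 and 11 of 12 mice below all CTRL mice, and at 152 to 263 CPM (median 192) on day 42, below all CTRL mice. Lyve1 did not pass the test on day 7 (log2FC 0.43 ± 0.25, edgeR adjusted p = 0.152) or day 14 (log2FC -0.26 ± 0.24, edgeR adjusted p = 0.346). It fell by 1.08 ± 0.24 on the log2 scale on day 21 (edgeR adjusted p = 0.00012), by 0.94 ± 0.24 on day 28, by 1.12 ± 0.24 on day 35 and by 1.14 ± 0.29 on day 42 (edgeR adjusted p = 0.00224). It also fell from day 14 to day 42 (log2FC -0.88 ± 0.28, edgeR adjusted p = 0.0105), and this missed the threshold without day 14 mouse 8, the mouse at 983 CPM (edgeR adjusted p = 0.0504).

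Against CTRL, other markers of lymphatic endothelium did not fall with Lyve1. Of 6 listed markers, 5 were tested, all but Ccl21a. Of these, Prox1, Mmrn1 and Reln rose on days 14, 21, 28, 35 and 42, and Pdpn on days 7, 14, 21, 28 and 42. Flt4, the lymphatic growth factor receptor, was not called on day 14 (log2FC 0.09) or day 42 (log2FC -0.21). On day 42, Prox1, a transcription factor that sets lymphatic identity, had a log2FC of 1.34 and Mmrn1 of 0.92. The summed level of the 5 markers was 253 to 314 CPM in CTRL mice, 296 to 530 CPM on day 21 and 305 to 445 CPM on day 42, and no marker was at 0 in all mice of a group. Markers of blood endothelium fell, 5 of 5 on days 14, 21, 28 and 35 and 2 of 5 on day 42, with a summed level of 2529 to 3230 CPM in CTRL mice and of 1905 to 2989 CPM on day 42. Of 5 markers of tissue-resident interstitial macrophages, another known site of Lyve1, 5 rose on day 14, and on day 42 Mrc1 and Gas6 were still higher while F13a1, Folr2 and Cd163 were not called (median log2FC of the list -0.27). Their sum was 509 to 594 CPM in CTRL mice, 730 to 1370 CPM on day 14 and 676 to 832 CPM on day 42. From day 14 to day 42, the interval over which Lyve1 also fell, F13a1, Folr2, Cd163 and Mrc1 fell (median log2FC of the list -1.93). Of the 5 lymphatic markers, Flt4 and Pdpn also fell over this interval and none rose (median log2FC of the list -0.29). The part of these cell types in the Lyve1 result was not tested.

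The matrix partners rose early. Vcan (ENSMUSG00000021614), on chromosome 13 (89655312 to 89742509, minus strand), encodes versican, a large proteoglycan that binds hyaluronan and is laid down in provisional matrix. It was at 8.98 to 21.9 CPM (median 16.6) in CTRL mice, at 37.4 to 103 CPM (median 64.7) on day 7, at 30.7 to 126 CPM (median 52.8) on day 14 and at 23.2 to 108 CPM (median 35.3) on day 21. The mice of these 3 days were all above all CTRL mice. On day 28 it was at 13.2 to 59.4 CPM (median 33.2), on day 35 at 17.7 to 38.1 CPM (median 21.1) and on day 42 at 11.7 to 26.7 CPM (median 15.5), with 9, 5 and 2 mice above all CTRL mice. Compared to CTRL, Vcan was 4.22-fold higher on day 7 (log2FC 2.08 ± 0.26, edgeR adjusted p = 8.70e-10), 4.13-fold on day 14, 3.08-fold on day 21 and 2.04-fold on day 28. The day 35 rise was near the threshold (log2FC 0.64 ± 0.25, edgeR adjusted p = 0.0422). It was lost without the filter on low counts (0.0756) and in refits that left out any 1 of CTRL mice 1, 2, 4, 6 and 7 or day 35 mice 2, 4, 6, 8 and 12 (edgeR adjusted p of 0.0503 to 0.0864). On day 42 the log2FC was 0.16 (confidence interval -0.40 to 0.72), and all day 42 mice were below all day 14 mice (log2FC -1.88 ± 0.28, edgeR adjusted p = 5.39e-07). Vcan was the single hyaluronan gene without overlap in that comparison, beside 3.72% of all genes.

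Tnfaip6 (ENSMUSG00000053475), on chromosome 2 (52038009 to 52056686, plus strand), encodes TSG-6, an inflammation-induced protein that crosslinks hyaluronan. It was at 0.511 to 1.96 CPM (median 1.02) in CTRL mice, or 5 to 22 counts, and at 1.47 to 2.95 CPM (median 2.14) on day 7. It was at 0.894 to 2.31 CPM (median 1.66) on day 14, at 1.35 to 3.09 CPM (median 1.76) on day 21 and at 0.501 to 2.13 CPM (median 1.04) on day 28. On day 35 it was at 0.961 to 2.97 CPM and on day 42 at 1.03 to 4.16 CPM. The groups overlapped on every day, with 6 of 10 mice above all CTRL mice on day 7. It was 1.94-fold higher on day 7 (log2FC 0.95 ± 0.24, edgeR adjusted p = 0.00076) and 1.77-fold on day 21 (log2FC 0.83 ± 0.23, edgeR adjusted p = 0.00196). The log2FC was 0.50 ± 0.23 on day 14 (edgeR adjusted p = 0.0587), 0.10 ± 0.24 on day 28 and 0.61 ± 0.26 on day 42 (edgeR adjusted p = 0.081). The day 14 difference passed the threshold in refits without CTRL mouse 3 or 10 or day 14 mouse 4, 9 or 12 (edgeR adjusted p of 0.0214 to 0.0459), and that of day 42 without CTRL mouse 10 (0.0412). The rise on day 35 (log2FC 0.62 ± 0.23, edgeR adjusted p = 0.0353) was lost without the filter (0.0859) and in refits without any 1 of CTRL mice 1, 2, 4, 6 and 7 or day 35 mice 3, 6 and 8 (edgeR adjusted p of 0.052 to 0.0797). Day 28 against day 21 missed the threshold (log2FC -0.72 ± 0.22, edgeR adjusted p = 0.097) and passed it without day 28 mouse 2 (0.0293).

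Comparisons between BLEO-IPF days tested the difference between days directly. Each day held other mice, and the paper reports mortality among BLEO-IPF mice, so later groups hold survivors. From day 7 to day 14, 4 hyaluronan genes were called, beside 17% of all genes (9.48% higher and 7.55% lower). Cemip and Cd44 rose and Hyal1 and Lyve1 fell. Apart from that of Cemip, these calls were near the threshold (edgeR adjusted p = 0.0336 for Cd44, 0.0407 for Hyal1 and 0.0343 for Lyve1). The Cd44 call was lost in refits without any 1 of day 7 mice 3, 5, 6, 7 and 8 or day 14 mice 1, 3 and 8 (edgeR adjusted p of 0.0549 to 0.101). The Hyal1 call was lost without any 1 of day 7 mice 4, 6, 7, 8 and 9 or day 14 mice 1, 2, 3, 7 and 8 (0.0518 to 0.103), and the Lyve1 call without any 1 of day 7 mice 5, 6 and 7 or day 14 mice 1, 2, 5, 7, 9 and 12 (0.0529 to 0.167). The difference in Has2 over this week missed the threshold (log2FC 1.16 ± 0.49, edgeR adjusted p = 0.0876). Between consecutive later groups the edgeR test called 0 of the 10 genes in each of the comparisons of day 21 with 14, 28 with 21, 35 with 28 and 42 with 35, beside 1.03%, 0.727%, 1.27% and 0% of all genes. At an unadjusted p under 0.05 there were 1, 5, 3 and 0 genes, and DESeq2 called 1 (Lyve1, adjusted p = 0.0349), 0, 1 (Has3, adjusted p = 0.0477) and 0. In refits without 1 of 9 mice of days 14 and 21 (day 14 mice 2, 5, 6, 7, 9, 11 and 12, day 21 mice 1 and 10), Lyve1 was lower on day 21 than on day 14 (edgeR adjusted p of 0.022 to 0.0495), and Has3 was higher on day 35 than on day 28 without day 28 mouse 4, 8 or 12 (0.0305 to 0.0467). Over the longer interval from day 14 to day 42, Has2, Cemip, Vcan and Lyve1 fell, 4 of 10 genes beside 34% of all genes (15.2% higher and 18.8% lower). Has1 was also lower on day 42 when mouse 1 of that day was left out (edgeR adjusted p = 0.00919; 0.0709 with all mice), and Has3 was higher on day 42 without day 14 mouse 1 (0.0375; 0.126 with all mice).

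Mice of the same day differed widely in some of these genes. The coefficient of variation of Has2 was 52.4% in CTRL mice, 36.3% on day 7, 73.8% on day 14 and 123% on day 21, and then 113%, 114% and 76.1% on days 28, 35 and 42. That of Cemip was 52.6% in CTRL mice, ran from 45.3% on day 14 to 128% on day 28 and was 98.9% on day 42. For the more abundant Cd44 and Hyal2 it was 10.6% and 12.8% in CTRL mice and between 8.54% and 22.3% after BLEO. On day 21 the same 3 of 12 mice (3, 5 and 10) had the highest levels of Has2 (20.4 to 30.3 CPM), Cemip (45.7 to 87.4 CPM), Vcan (81.5 to 108 CPM) and Cd44 (288 to 306 CPM). On day 28, 2 mice (1 and 5) were among the highest 3 for Has2, Cemip and Vcan. On days 7, 14, 35 and 42 this held for 1 mouse each, and in CTRL mice for 0. As deviations from group means of log2 CPM over the 75 mice, Pearson's r was 0.80 between Has2 and Vcan, 0.72 between Has2 and Cemip, 0.70 between Cd44 and Vcan and -0.61 between Has2 and Hyal1. The r of Tnfaip6 with Has2, Cemip and Vcan was between -0.02 and 0.11. These values describe the same libraries, and depth and tissue make-up are shared by the points.

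Markers of other cell types moved with these genes. The summed level of 7 fibroblast markers was 1954 to 2746 CPM in CTRL mice, 5401 to 15738 CPM on day 14 and 2505 to 4112 CPM on day 42, and 5 of the 7 rose on day 14, among them Col1a1 (log2FC 2.90), whereas Tcf21 fell. Over deviations from group means this sum had an r of 0.83 with Has2, 0.83 with Cemip and 0.74 with Vcan. The sum of alveolar type II cell markers, lowest on day 14, had an r of -0.81 with Has2, -0.71 with Vcan and -0.67 with Cemip. The summed level of 5 markers of monocyte-derived macrophages was 124 to 227 CPM in CTRL mice and 1082 to 8248 CPM on day 14, and its r with Cd44 was 0.78. Has1 had its highest r with mesothelium markers (0.58), whose sum was 66.9 to 217 CPM in CTRL mice and 159 to 405 CPM on day 14. Of these 4 markers, Msln rose on day 14 and the other 3 were not called (median log2FC of the list -0.06). Lyve1 had an r of -0.72 with markers of all leukocytes and of 0.10 with those of lymphatic endothelium. Its highest r was 0.33, with markers of blood endothelium and with those of alveolar type I cells. With markers of tissue-resident interstitial macrophages it was 0.25. The part of cell numbers in each rise or fall was not tested.

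**Figure D4:**
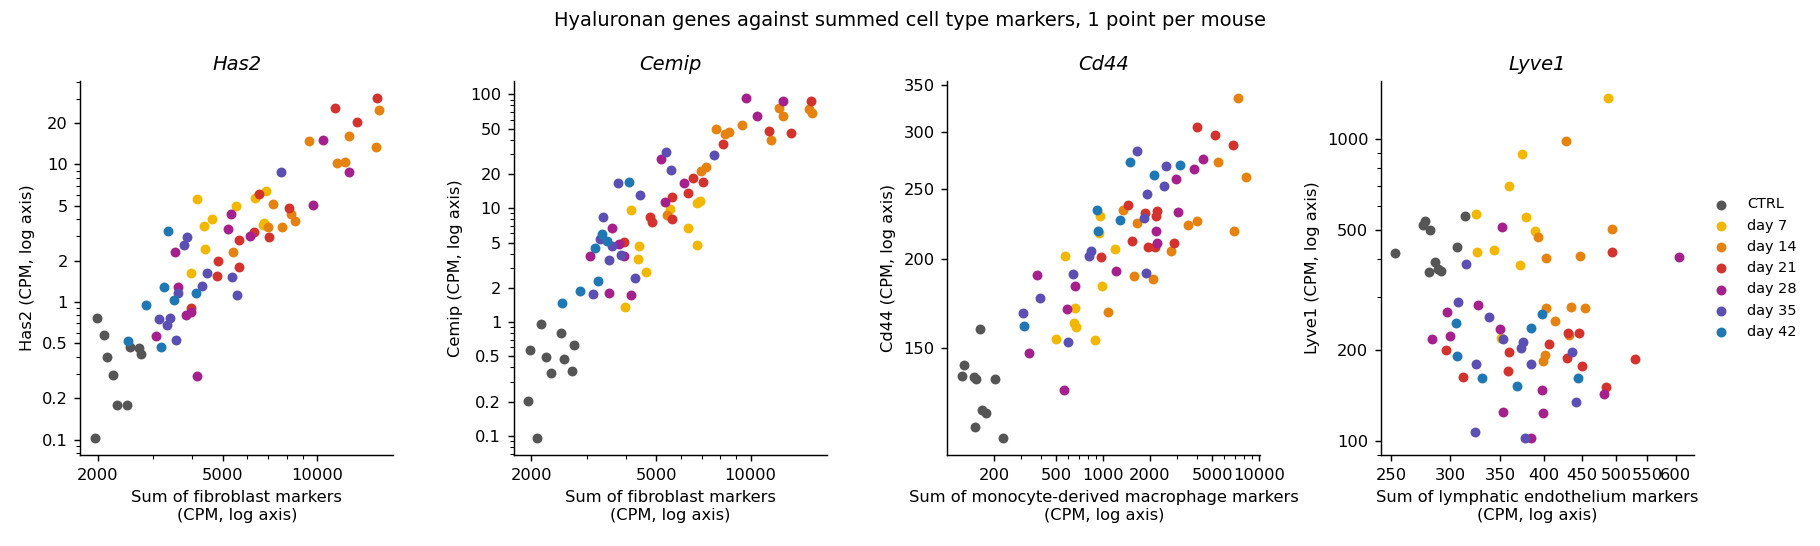
Level of Has2 and Cemip against the sum of fibroblast markers, of Cd44 against that of monocyte-derived macrophage markers and of Lyve1 against that of lymphatic endothelium markers, all in CPM on log axes, with 1 point per mouse coloured by group. Over deviations from group means r is 0.83, 0.83, 0.78 and 0.10.

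The genes most alike in pattern over the 75 mice were found by Pearson's r of log2 CPM. For Has2 they were Inhba, an activin subunit (r = 0.94), Tgfbi (0.93) and Sfrp1 (0.93). For Cemip they were Mmp14, a membrane-bound matrix metalloproteinase (0.95), Megf11 (0.94) and Pmepa1 (0.94), and for Vcan AI506816 (0.93), Col6a1, a collagen VI chain (0.91), and Tgfbi (0.90). The r of deviations from group means was 0.92 for Has2 with Inhba, 0.90 for Cemip with Mmp14 and 0.82 for Vcan with AI506816, so these genes also varied together among mice of the same day. Cd44 was most like Csf2rb (0.90), Sirpa (0.89) and Csf2rb2 (0.89), genes of myeloid cells, and Lyve1 most like Gpr182 (0.89), Slc43a3 (0.87) and Serinc3 (0.86). Hyal1 was most like Gnao1 (0.85), Ankrd63 (0.82) and Abca8b (0.82). Hyal2 was most like Cldn5 (0.79), Ehd1 (0.78) and Esam (0.76), of which Cldn5 and Esam are endothelial genes. The likeness was lower for Has1 (Gfpt2, 0.65; Msln, 0.64; Fgf2, 0.64), Has3 (Muc5b, 0.61; Adam28, 0.60; Celsr1, 0.58) and Tnfaip6 (Areg, 0.56; Bdkrb1, 0.54; Phlda1, 0.52).

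A wider list of 37 other hyaluronan genes in the table, of which 26 passed the filter on low counts, was read beside them. On day 7, 10 of the 26 rose and 4 fell, on day 14, 15 rose and 5 fell, on day 21, 12 rose and 2 fell, on days 28 and 35, 11 rose and 15 were not called, and on day 42, 9 rose and 2 fell (edgeR). The shares of all genes for these days are those given above, and the median log2FC of the list was 0.31, 0.41, 0.20, 0.12, 0.07 and 0.12. From day 14 to day 42, 4 of the 26 rose and 13 fell, beside 15.2% of all genes higher and 18.8% lower.

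Among genes of enzymes that finish hyaluronan breakdown in lysosomes, Hexa and Gusb, the gene of beta-glucuronidase, rose on all 6 days, with a log2FC on day 14 of 0.88 ± 0.10 and 1.27 ± 0.12. These enzymes act on many other sugar chains. Both fell again from day 14 to day 42 (log2FC -0.29 and -0.45). Of the other hyaluronidases, Hyal3 fell on day 7 (log2FC -0.78 ± 0.27) and day 14 (-0.86 ± 0.26), from 1.29 ± 0.312 CPM in CTRL mice to 0.70 ± 0.373 CPM on day 14 (SD), and it shares 159 exonic bases with Hyal1. Cemip2, the membrane-bound relative of Cemip, was called on no day, with a log2FC of -0.06 ± 0.11 on day 14. Hyal4, Hyal5, Hyal6 and Spam1 did not pass the filter.

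All 6 other receptors of the list rose on day 14. Hmmr, a hyaluronan-binding protein of the mitotic spindle and a marker of dividing cells, rose from 1.43 to 2.97 CPM in CTRL mice to 6.97 to 19.9 CPM on day 14 (log2FC 2.68 ± 0.28), and it was not called on day 42 (0.49 ± 0.33). Stab2, a scavenger receptor that clears hyaluronan from lymph and blood, was at 1.15 to 3.43 CPM in CTRL mice and at 3.43 to 10.6 CPM on day 42, and it rose on day 14 (log2FC 1.5 ± 0.28) and each later day. Stab1, its relative, rose on day 14 (0.44 ± 0.12) and fell on day 42 (-0.41 ± 0.14). Tlr2 rose on all 6 days and Tlr4 on 5.

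Partners that organize the polymer changed in both directions. Ptx3, which binds TSG-6 and heavy chains, rose from 0.296 to 1.59 CPM in CTRL mice to 4.51 to 19 CPM on day 14 (log2FC 3.59), and was still higher on day 42 (log2FC 2.30). Hapln1, whose product links proteoglycans such as versican to hyaluronan, rose on day 14 (log2FC 1.59 ± 0.26) and each later day. The heavy chain gene Itih3 rose on all 6 days (1.35 on day 14), whereas Itih1 fell on days 7, 14 and 21 (-1.45 ± 0.21 on day 14) and Itih5 on days 7, 14, 21 and 42. The lectican gene Bcan, best known from brain, fell from 4.09 to 8.40 CPM in CTRL mice to 0.398 to 6.34 CPM on day 14 (log2FC -1.67 ± 0.39). Of 7 genes of UDP-sugar supply, Ugdh, Gfpt2, Gnpnat1 and Pgm3 rose on days 7 and 14, and Gnpnat1 was still called on day 42. On day 14 the log2FC was 0.43 for Ugdh, the source of UDP-glucuronic acid, and 0.94 for Gfpt2, an entry enzyme of the hexosamine pathway, while Gfpt1, Ugp2 and Uap1 were called on no day.

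**Figure D5:**
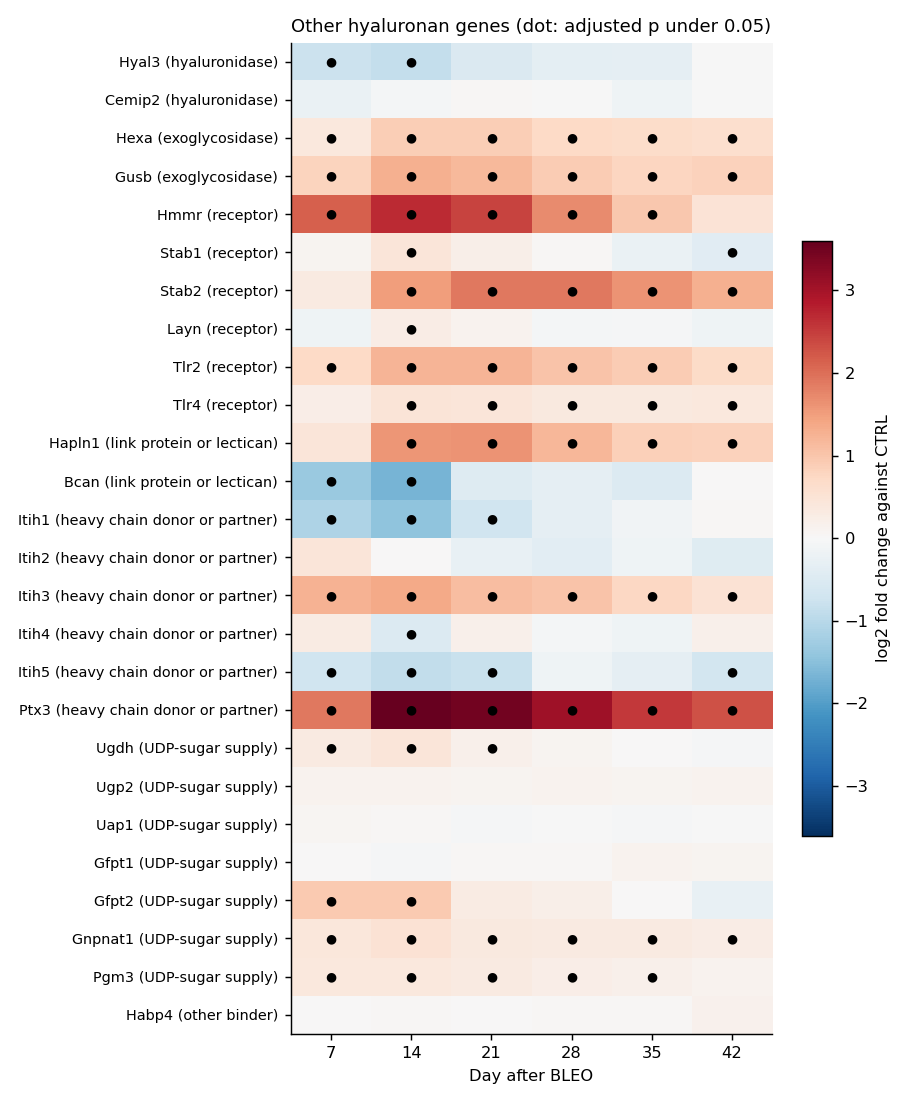
log2FC against CTRL by day for the 26 other hyaluronan genes that passed the filter, grouped by role, with a dot where the adjusted p is under 0.05. Ptx3 (3.59) and Hmmr (2.68) have the highest values on day 14, and Bcan (-1.67) and Itih1 (-1.45) the lowest.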

How the data were processed

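Polyadenylated lung RNA was converted to stranded libraries and sequenced single-end by the authors, with 1 library per mouse. Per the labels, reads were aligned with STAR 2.7.0f to GRCm38, and all 55536 identifiers matched Ensembl release 96. The deposited table holds raw counts per gene. The counting program and its handling of strand and of reads with several matches are not given in the sources used here. Among 375 pairs of libraries of the same group, none had counts that agreed within sampling noise (lowest chi-square per degree of freedom 4.11), so none was taken as a duplicate. Whether mice of a group shared a cage or day is not stated.

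From the counts, CPM with TMM factors, log2FC, SE (the size of the log2FC over the root of F) and adjusted p-values were computed in R 4.3.3 with edgeR 4.0.16 (filterByExpr, quasi-likelihood F test, 1 mean per group, all 75 mice) over 16221 genes and 12 comparisons at a threshold of 0.05. Confidence intervals are normal intervals from the SE. RPKM is CPM per kb of merged exons, and log2 CPM used a prior count of 2. SDs are between mice. A count of 3 or fewer was taken as the floor. With 9240291 to 14665247 counts per library, a gene near 1 CPM rests on about 10 counts, which limits Has1, Has2, Has3 and Tnfaip6 and, in CTRL mice, Cemip. The steps were tested on simulated data. Alternatives were DESeq2 1.42.0, library size or upper quartile scaling, no filter on low counts, fits restricted to each pair of groups, a block for replicate number, and leaving out each mouse with the dispersions of the full fit. For RPKM, the length of the longest transcript was a further alternative.

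All 10 genes are named, with the 3 tested genes most alike to each (mean log2 CPM above 1, clone and accession symbols of the types Gm, Rik, AC, AL and BC left out). Of the wider list, up to 2 called genes per role with the largest change on day 14 and on day 42 are named by rule. Stab1, Tlr4, Itih3, Ugdh, Pgm3 and the genes named as not called lie outside it, chosen once their values had been seen. The genes and lists were chosen with earlier results of these data known. Overlapping genes are named by position. A gene of the wider list is not reported here.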

Additional observations from a re-analysis of the deposited data

Results flagged for a closer look

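On day 42, the highest of the 7 mice stood far above the others in each of 4 genes, by Dixon's test at the 95% level. It was not the same mouse in all 4. Has1 was at 4.05 CPM and Has2 at 3.26 CPM in mouse 1, where the next mice were at 1.87 and 1.29 CPM. Cemip was at 17.1 CPM in mouse 7, where the next mouse was at 5.93 CPM, and Tnfaip6 at 4.16 CPM in mouse 3, where the next mouse was at 1.68 CPM. In all, 30 groups of 7 or 10 mice were tested, and chance flags about 1 in 20.

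The response to BLEO differed between days by a test of the difference itself (edgeR adjusted p under 0.05) for 6 genes. From day 7 to day 14, Cemip rose by a log2FC of 2.85 and Cd44 by 0.31, whereas Hyal1 had a log2FC of -0.40 and Lyve1 of -0.70. From day 14 to day 42, the log2FC was -2.92 for Has2, -3.13 for Cemip, -0.88 for Lyve1 and -1.88 for Vcan.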

How the results depend on the processing

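Of the counts of hyaluronan genes called, those against CTRL stayed within 1.5 times the main count under every alternative, and no named difference reversed. Without the filter on low counts, 1 gene (Cemip) was called from day 7 to day 14, where the main test called 4. DESeq2 called 1 gene for day 21 against 14 and 1 for day 35 against 28, where edgeR called 0. When each mouse was left out in turn, the number called against CTRL ranged from 5 to 5 for day 7, 5 to 6 for day 14, 7 to 7 for day 21, 6 to 6 for day 28, 6 to 9 for day 35 and 4 to 5 for day 42. The range was 1 to 4 for day 14 against 7, 0 to 1 for day 21 against 14, for day 28 against 21 and for day 35 against 28, 0 to 0 for day 42 against 35, and 3 to 5 for day 42 against 14.

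Replicate numbers were not taken to pair the mice. Over 204 pairs of mice with the same number in different groups, r of the deviations from group means ran from -0.71 to 0.73 (median 0.06). A share of 0.41 of these pairs was above 0.1, and the median over pairs with other numbers was -0.0023. With the replicate number as a block, 5, 6, 7, 6, 9 and 4 genes were called on the successive days against CTRL, 5 from day 7 to day 14, 5 from day 14 to day 42, and 0 in the other comparisons.

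Has2 did not pass the filter on low counts in the fits restricted to CTRL and day 28, 35 or 42. The fall of Lyve1 and the rise of Cd44 from day 7 to day 14 were lost under more than 1 alternative: the adjusted p of Cd44 was 0.0613 with library size scaling, 0.0507 with upper quartile scaling and 0.0651 without the filter. That of Lyve1 was 0.0617 without the filter and 0.1 in the restricted fit, and that of Hyal1 was 0.081 and 0.0556. The causes were not tested. Counts of 1 to 12 per mouse for Has2 and Cemip in CTRL lungs limit the precision of their folds.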
